A study of Mus musculus with 12 samples.

Results

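The axon guidance ligands and receptors were the 69 genes whose symbols name a semaphorin, plexin, neuropilin, ephrin, Eph receptor, Slit, Robo, netrin, Unc5 receptor or Dcc, out of 24531 genes in the deposited tables. They were taken by symbol alone, under a symbol rule set with earlier results of these data known. Of them, 35 encode ligands and 34 receptors. Expression was measured by RNA sequencing of 2 regions of the amygdala, its basolateral part (BLA) and its central part (CeA), in male wild-type mice of the inbred strains 129S1/SvImJ (S1) and C57BL/6 (B6). Mice were untrained (naive), had been fear-conditioned (FC), or had also gone through extinction of the fear memory (Ext), and the series asked which genes go with the impaired fear extinction of S1 mice. The 12 groups were therefore S1 and B6 BLA and S1 and B6 CeA, each naive, conditioned and after extinction, and each group was 1 library. The labels give no age and no number of mice per library, and do not state if BLA and CeA came from the same mice. The design text of the series speaks of its medial division, whereas the sample labels say CeA, which is the word used here.

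Axon guidance cues are secreted or membrane-bound proteins that attract or repel growing axons, and the same families act later in synapse formation and plasticity. Slits act through Robo receptors. Netrins act through Dcc, which mediates attraction, and through the Unc5 receptors, which mediate repulsion. Class 3 semaphorins are secreted and mostly bind neuropilins that signal through plexins, while semaphorins of classes 4 to 7 are membrane-bound and bind plexins directly. Ephrins are held at the cell surface, the A type by a lipid anchor and the B type by a membrane-spanning segment, and bind Eph receptor tyrosine kinases on neighbouring cells.

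Library totals were 42224899 to 61695302 read counts, and a count of 3 corresponded to between 0.0486 and 0.071 CPM (counts scaled to library size). The region labels matched 7 of 8 BLA and 11 of 11 CeA markers. The FPKM values (fragments scaled to transcript length and library size) of 8 BLA excitatory neuron markers summed to 1188.9 to 1548.6 in the 6 BLA libraries and 312.69 to 466.11 in the 6 CeA libraries, and those of 11 CeA neuron markers to 522.09 to 963.14 in BLA and 2938.4 to 4123.7 in CeA. Most of the BLA sum came from Slc17a7 and Camk2a, and Cdh13 ran against it, at 10.7 to 16.7 FPKM in BLA and 32.6 to 39.3 FPKM in CeA. Among the CeA libraries, B6 naive and S1 FC stood apart in Slc17a7, the vesicular glutamate transporter of BLA projection neurons, with 59.7 and 30.8 FPKM. The other 4 CeA libraries had 4.25 to 12.8 FPKM of it, and the BLA libraries 563.6 to 633.0 FPKM. Strain also moved with glial markers, which before extinction were lower in S1 for 7 of 9 oligodendrocyte, 6 of 8 astrocyte, 5 of 8 microglial and 3 of 6 oligodendrocyte precursor markers, with 0 higher (edgeR adjusted p under 0.05; 8, 6, 7 and 4 lower and unadjusted p under 0.05). The 9 oligodendrocyte markers summed to 1284.4 and 1161.6 FPKM in S1 BLA against 1875.9 and 1495.2 in B6 BLA, and to 690.55 and 691.35 FPKM in S1 CeA against 1285.5 and 1431.4 FPKM in B6 CeA. The astrocyte markers summed to 497.56 to 581.0 FPKM in the 4 S1 libraries and 639.51 to 720.79 FPKM in the 4 B6 libraries, the microglial markers to 150.08 to 158.37 and 190.54 to 235.19 FPKM, and the precursor markers to 79.9 to 100.05 and 107.72 to 126.78 FPKM. In tissue samples, fewer cells of a type and less RNA per cell cannot be told apart.

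All 69 genes were listed, and 68 of them had enough counts for the tests. The remaining one, the EphA receptor gene Epha1, had 0 to 8 counts per library. FPKM corrects for transcript length, so levels can be compared between genes, but the naive and conditioned libraries and the extinction libraries were deposited in separate tables, and a mean over all 12 libraries crosses them. By that mean FPKM level the most abundant genes were the ephrin-B gene Efnb3 (52.4 FPKM), the semaphorin Sema6b (44.0), the netrin receptor Unc5a (33.7), the ephrin-A gene Efna3 (30.9) and the receptor Epha4 (24.1). Within the other families the highest mean levels were those of Plxnb1 among the plexins (15.1 FPKM), Nrp2 of the neuropilins (5.52), Ephb6 among the EphB receptors (13.9), Slit1 (17.6), Robo2 (10.8) and Ntn3 among the netrins (3.50). In BLA alone the medians of Plxna1, Plxna2 and Plxna4, 16.3, 15.7 and 14.1 FPKM, exceeded the 13.2 FPKM of Plxnb1. The lowest in their families were Sema3b (0.640 FPKM), Plxnb3 (3.37), Nrp1 (4.69), Efna4 (0.183), Efnb1 (5.24), Epha1 (0.0176), Ephb4 (1.07), Slit2 (5.91), Robo3 (0.253), Ntn5 (0.616) and Unc5b (3.27). In BLA alone Epha7 led the EphA receptors (median 26.3 FPKM) and Unc5d was the lowest of the Unc5 and Dcc group (3.27 FPKM).

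The first comparison set BLA against CeA. In naive and conditioned mice, 33 of the 68 genes were higher and 12 lower in BLA (edgeR quasi-likelihood test, adjusted p under 0.05), shares of 48.5% and 17.6%. Over all 16274 genes tested, 23.2% were higher and 23.4% lower (46.6% in either direction). All 9 oligodendrocyte markers were also higher in BLA (median log2 fold change 0.63), and their part in the region differences was not tested. The median log2 fold change of BLA over CeA was 0.25 for the guidance genes and −0.01 for all genes. After extinction, in a separate table of 4 libraries with 1 residual degree of freedom, 22 of the 68 were higher and 14 lower in BLA, against 18.8% and 17.5% of the 15996 genes tested (36.3% in either direction). The genes that passed in both tables numbered 34, all with the same direction, and 44 of the 45 that passed before extinction kept their sign after it. The matching counts over all genes were not made, so this agreement is not read as a trait of the guidance genes. Plxna3 and Plxnb1 passed only in the extinction table, as lower in BLA. The FPKM values of all 6 BLA libraries lay above those of all 6 CeA libraries for 13 of the 69 genes (18.8%, against 10.9% of all genes tested), and below them for 12 (17.4%, against 18.3%).

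Ligand genes split as 16 higher and 5 lower in BLA of 35 before extinction, and receptor genes as 17 higher and 7 lower of 33 tested. Over all genes tested, 23.2% were higher and 23.4% lower. By family, 3 of 3 Slits, 10 of 20 semaphorins, 2 of 4 netrins and 1 of 8 ephrins were higher in BLA. Of the receptors, 5 of 8 tested EphA, 2 of 5 EphB, 4 of 9 plexin and 2 of 4 Robo genes were higher. So were 3 of 5 genes of the Unc5 and Dcc group and 1 of 2 neuropilins. The genes lower in BLA were 2 semaphorins, 1 netrin, 2 ephrins, 2 EphA, 1 EphB, 2 plexin, 1 Robo and 1 Unc5 gene. Correcting for a trend of library differences with transcript length gave 40 higher and 12 lower guidance genes, with 30.9% and 19.6% of all genes. The median log2 fold change was then 0.31 for the guidance genes and 0.07 for all genes. In 1 model of all 12 libraries 33 were higher and 15 lower, with 27.2% and 27.6% of all genes.

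**Figure D1:**
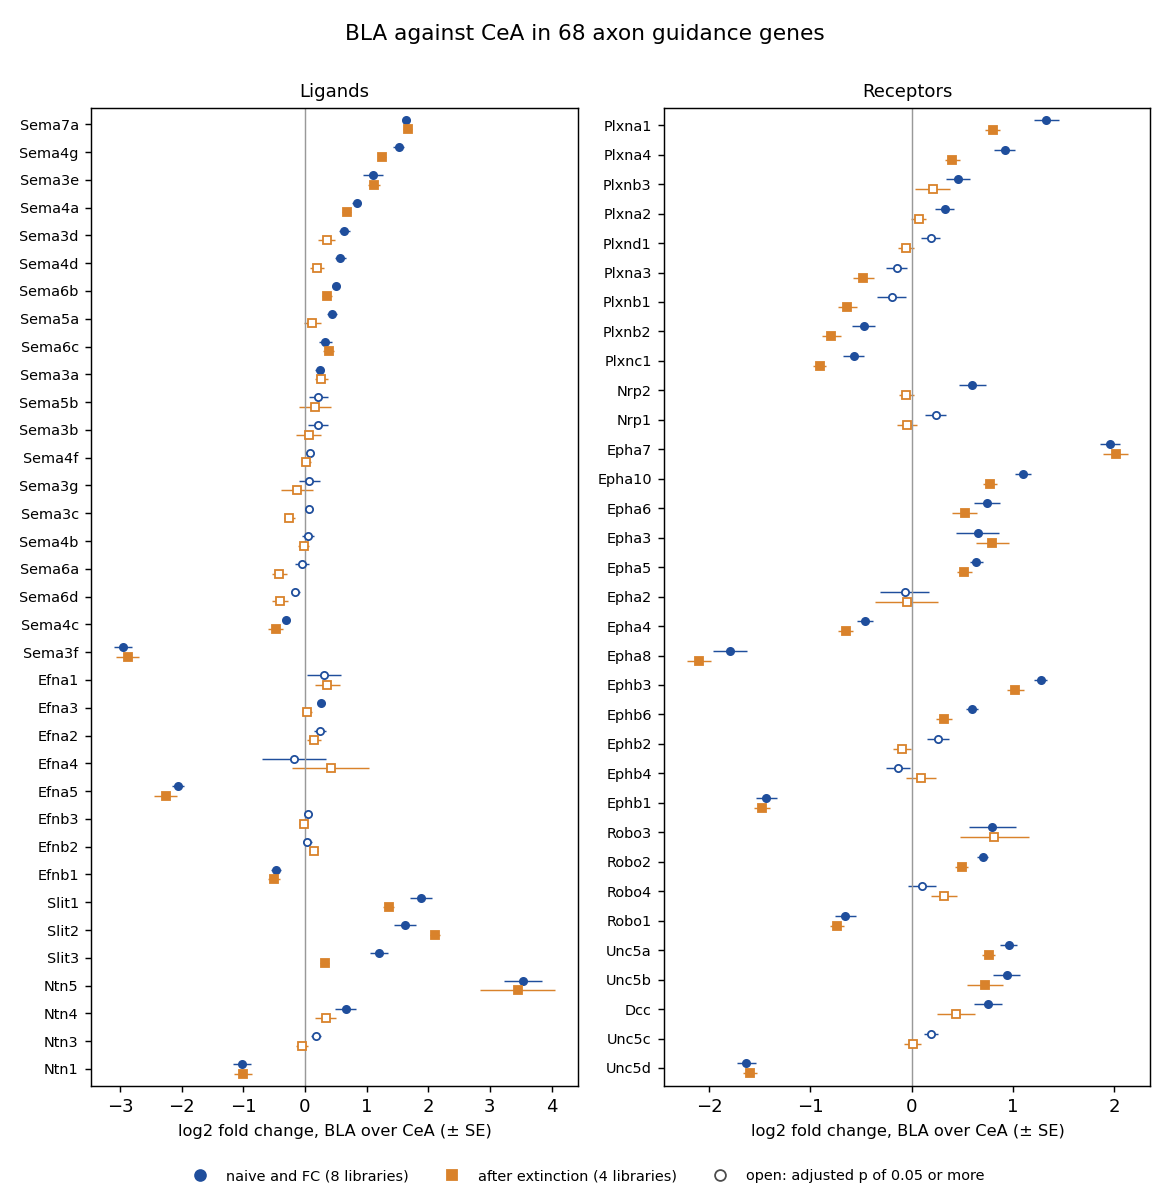
Log2 fold change of BLA over CeA (x axis, ± SE) for the 68 tested genes (y axis), with ligands on the left and receptors on the right and families in blocks. Circles are the 8 naive and conditioned libraries and squares the 4 extinction libraries, and filled symbols passed an adjusted p of 0.05; Ntn5 and the 3 Slits lie to the right in both tables, and Sema3f, Efna5, Epha8 and Unc5d to the left.

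All 3 Slit genes, which encode large secreted ligands of the Robo receptors, were higher in BLA. Slit1 ranged from 18.3 to 34.9 FPKM (median 25.6) in BLA and from 5.79 to 14.5 FPKM (median 7.89) in CeA, without overlap. Its log2 fold change was 1.88 ± 0.18 (SE) before extinction (edgeR adjusted p = 6.85e-05) and 1.36 ± 0.09 after it (edgeR adjusted p = 0.00145). Slit2 ranged from 7.79 to 10.9 FPKM in BLA and from 1.85 to 4.61 FPKM in CeA, and was higher by 1.62 ± 0.17 and 2.11 ± 0.08 on the log2 scale before and after extinction. Slit3 was also higher, by 1.20 ± 0.14 and 0.32 ± 0.07 (edgeR adjusted p = 0.000229 and 0.0314), but its BLA range of 6.32 to 12.7 FPKM overlapped its CeA range of 3.83 to 7.15 FPKM. In BLA, Slit3 had 11.3, 12.7 and 6.78 FPKM in naive, conditioned and extinction S1 mice and 11.7, 9.30 and 6.32 FPKM in the same B6 groups, so both extinction libraries held its lowest BLA values. The extinction libraries were deposited in a table of their own, so extinction and table cannot be told apart in these levels.

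The Robo receptors did not follow one direction. Robo1 was lower in BLA, at 4.09 to 6.84 FPKM against 7.44 to 13 FPKM in CeA (log2 fold change −0.65 ± 0.11 before and −0.73 ± 0.07 after extinction, edgeR adjusted p = 0.00134 and 0.0033). Robo2 was higher in BLA, at 9.53 to 16.1 FPKM against 7.36 to 10.4 FPKM in CeA (0.70 ± 0.05 and 0.49 ± 0.07, edgeR adjusted p = 2.32e-05 and 0.00774). The Robo1 ranges did not overlap, and the Robo2 ranges did. The genes lie near each other on chromosome 16, Robo1 at 72663149 to 73046100 and Robo2 at 73892306 to 74410912 (mm10). Robo3, which acts in commissural axons, was low throughout (0.109 to 0.487 FPKM) and passed as higher in BLA before extinction (0.80 ± 0.24). That call was lost without any 1 of 5 libraries, B6 naive BLA, S1 naive CeA, B6 naive CeA, S1 FC BLA or B6 FC CeA, with edgeR adjusted p of at most 0.0913. Robo4, known from endothelial cells, had a log2 fold change of 0.10 ± 0.14 and did not pass.

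**Figure D2:**
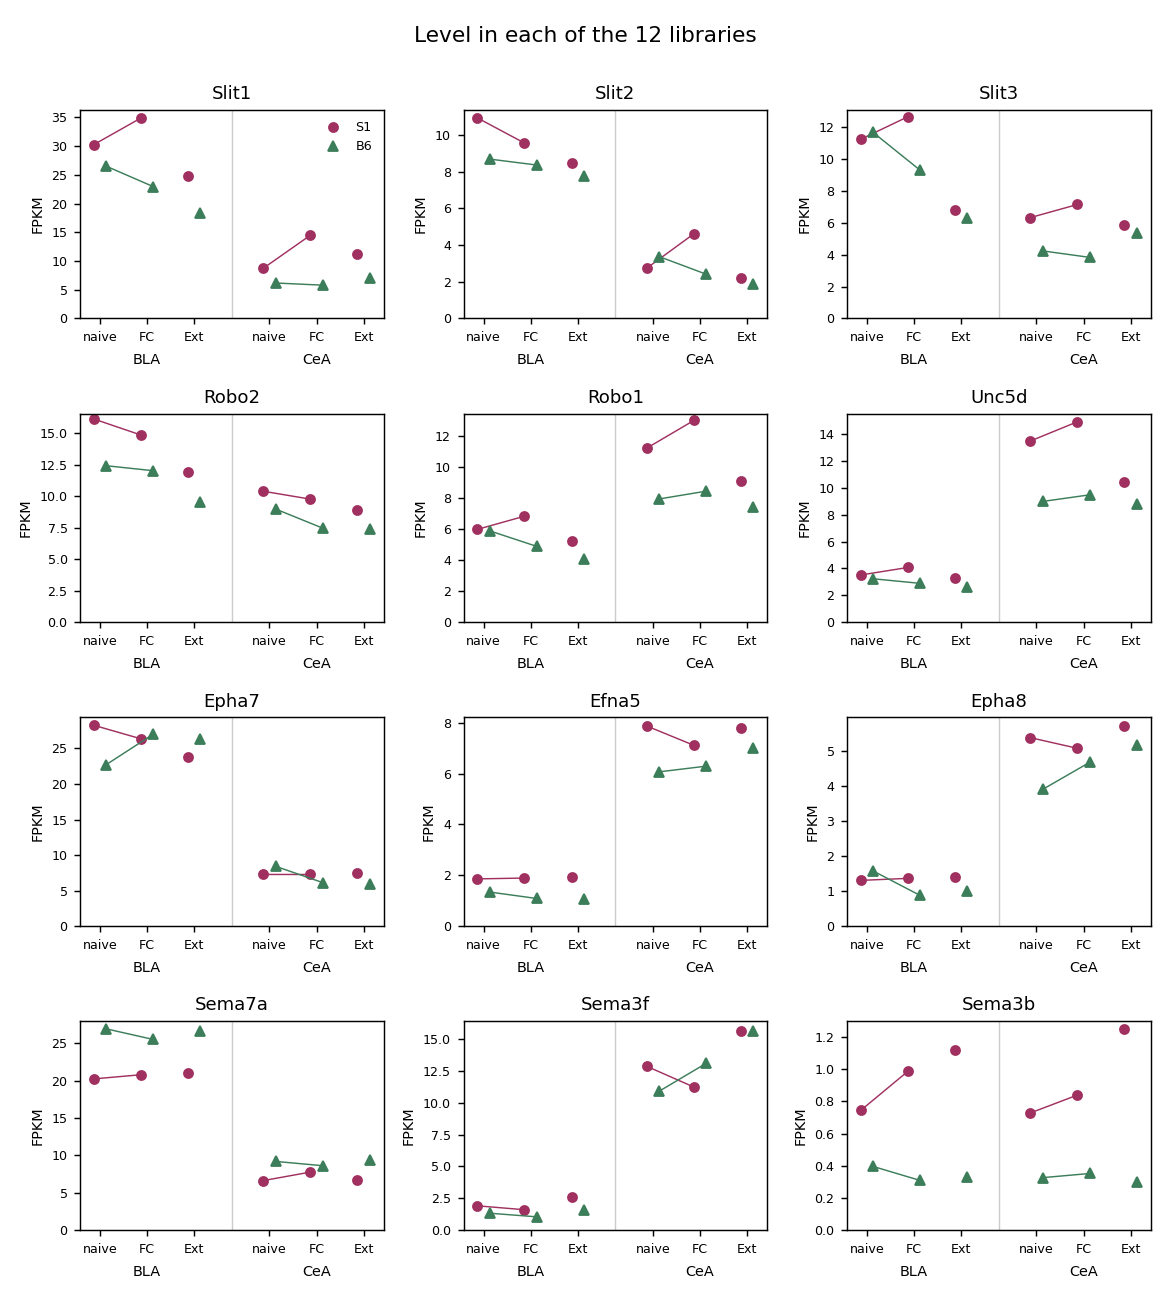
FPKM (y axis, linear from 0) of 12 guidance genes in each of the 12 libraries, with BLA left of CeA, naive, FC and Ext along the x axis, S1 as circles and B6 as triangles; a line joins the naive and conditioned libraries of a strain, which share a table. Slit1, Slit2, Epha7 and Sema7a sit higher in every BLA library than in any CeA library, Robo1, Unc5d, Efna5, Epha8 and Sema3f sit lower, and Sema3b separates S1 from B6 instead.

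Among the netrins, Ntn1, the founding guidance cue of the family, was lower in BLA. It had 0.877 to 1.85 FPKM in BLA and 2.68 to 3.34 FPKM in CeA, without overlap, and a log2 fold change of −1.02 ± 0.15 before and −1.0 ± 0.14 after extinction (edgeR adjusted p = 0.000855 and 0.00967). Ntn5 had the largest log2 fold change of the 68 genes, 3.54 ± 0.31 before and 3.45 ± 0.61 after extinction, at a low level: 0.939 to 1.42 FPKM in BLA and 0.0193 to 0.219 FPKM in CeA, with as few as 3 counts in a CeA library. After extinction the value was 2.43 within S1 (without B6 Ext BLA) and 4.30 within B6 (without S1 Ext BLA). In the GENCODE annotation (GRCm38), 23.4% of the exon bases of Ntn5 overlap Sec1 on the opposite strand, and whether counting used strand is not given in the sources used here, so reads of the 2 genes may be mixed. Ntn4, a laminin-like netrin, passed before extinction (0.66 ± 0.17) but not without S1 FC BLA (edgeR adjusted p = 0.052). Ntn3 had a log2 fold change of 0.18 ± 0.08 and did not pass.

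The netrin receptors split as well. Unc5a, the most abundant of them, had 39.7 to 46.9 FPKM in BLA and 22.7 to 28.2 FPKM in CeA, and was higher in BLA by 0.96 ± 0.08 and 0.76 ± 0.07 before and after extinction (edgeR adjusted p = 3.62e-05 and 0.00262). Unc5b was higher by 0.94 ± 0.13 and 0.73 ± 0.18. Dcc was higher before extinction (0.75 ± 0.14, edgeR adjusted p = 0.00274) and at 0.44 ± 0.19 after it, which did not pass. Unc5d, which also binds FLRT adhesion proteins, went the other way, with 2.64 to 4.07 FPKM in BLA and 8.79 to 14.9 FPKM in CeA (−1.63 ± 0.10 and −1.59 ± 0.07, edgeR adjusted p = 6.3e-06 and 0.000769). Every CeA library exceeded every BLA library. Unc5c did not pass (0.19 ± 0.07).

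Of the 20 semaphorins, 10 were higher and 2 lower in BLA before extinction, and 6 higher and 2 lower after it. Over all genes tested, 23.2% were higher and 23.4% lower before extinction, and 18.8% and 17.5% after it. Sema3f, a secreted semaphorin that acts through Nrp2, had the largest difference in favour of CeA among all 68 genes. Its locus is chromosome 9, 107681502 to 107710475, in mm10 (Gene_ID 20350). In S1 BLA its level was 1.90, 1.59 and 2.56 FPKM in naive, conditioned and extinction mice, and in B6 BLA 1.32, 1.04 and 1.56 FPKM. In S1 CeA the values were 12.8, 11.2 and 15.7 FPKM and in B6 CeA 10.9, 13.1 and 15.6 FPKM. Every CeA library thus exceeded every BLA library, and the log2 fold change was −2.96 ± 0.15 before and −2.87 ± 0.19 after extinction (edgeR adjusted p = 3.45e-06 and 0.00147).

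Sema7a, a lipid-anchored semaphorin that binds Plxnc1, was higher in BLA, with 20.2 to 26.9 FPKM against 6.62 to 9.39 FPKM in CeA (1.64 ± 0.07 and 1.67 ± 0.08, edgeR adjusted p = 2.28e-06 and 0.000804). Its receptor gene Plxnc1 was lower in BLA, with 6.14 to 9.59 FPKM against 10.8 to 16.2 FPKM in CeA (−0.57 ± 0.10 and −0.91 ± 0.07). The transmembrane semaphorin gene Sema4g followed Sema7a, at 20.7 to 28.1 FPKM in BLA and 9.07 to 11.2 FPKM in CeA (1.52 ± 0.09 and 1.25 ± 0.07). Sema3e, the secreted ligand of Plxnd1, was higher by 1.10 ± 0.17 and 1.12 ± 0.10, while Plxnd1 itself had 0.19 ± 0.09 and −0.05 ± 0.08 and did not pass. Sema4c was lower in BLA (−0.31 ± 0.07 and −0.47 ± 0.12), and Sema4a and Sema6b were higher in both tables. Sema3d, Sema4d and Sema5a passed as higher before extinction only. Sema3a passed before extinction and Sema6c in both tables, but before extinction Sema3a not without any 1 library other than those of naive B6 mice (edgeR adjusted p of at most 0.115), and Sema6c not without any 1 naive library or B6 FC CeA (at most 0.122). The other 8 semaphorins, Sema3b, Sema3c, Sema3g, Sema4b, Sema4f, Sema5b, Sema6a and Sema6d, had log2 fold changes of −0.16 to 0.22 before extinction and did not pass in either table.

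Among the plexins, which carry the signal of semaphorins into the cell, the class A genes Plxna1 and Plxna4 were higher in BLA in both tables. Plxna1 had 12.1 to 17.9 FPKM in BLA and 5.89 to 9.60 FPKM in CeA, with a log2 fold change of 1.33 ± 0.12 before and 0.80 ± 0.07 after extinction (edgeR adjusted p = 5.38e-05 and 0.00295). Plxna4 was higher by 0.92 ± 0.10 and 0.40 ± 0.07. Plxnb2 was lower in BLA (−0.47 ± 0.12 and −0.79 ± 0.10). Plxna2 and Plxnb3 passed as higher before extinction (0.33 ± 0.09 and 0.46 ± 0.12), but Plxna2 not without S1 naive CeA, B6 naive CeA, B6 FC BLA or B6 FC CeA (edgeR adjusted p of at most 0.0803). Nrp2, the co-receptor of Sema3f, was higher in BLA before extinction (0.60 ± 0.13, edgeR adjusted p = 0.00691) and at −0.05 ± 0.07 after it. Nrp1, the co-receptor of Sema3a, did not pass in either table.

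The ephrin-A system divided between the regions. Efna5, a repellent ligand for EphA receptors, was lower in BLA: S1 BLA had 1.86, 1.89 and 1.94 FPKM and B6 BLA 1.34, 1.09 and 1.06 FPKM in naive, conditioned and extinction mice, against 7.87, 7.11 and 7.81 FPKM in S1 CeA and 6.07, 6.29 and 7.02 FPKM in B6 CeA. The log2 fold change was −2.06 ± 0.10 before and −2.26 ± 0.19 after extinction (edgeR adjusted p = 2.87e-06 and 0.00231). The other ephrin-A genes were Efna3, higher in BLA before extinction by 0.27 ± 0.06, and Efna1, Efna2 and Efna4, which did not pass. Efna3 did not pass after extinction, and its ranges overlapped, at 30.0 to 35.5 FPKM in BLA and 28.2 to 31.4 FPKM in CeA. Of the ephrin-B genes, Efnb1 was lower in BLA (−0.47 ± 0.09 and −0.50 ± 0.10), and Efnb2 and Efnb3 did not pass.

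Of the 8 EphA receptors tested, 5 were higher in BLA in both tables (Epha3, Epha5, Epha6, Epha7 and Epha10) and 2 lower (Epha4 and Epha8). Over all genes tested, 23.2% were higher and 23.4% lower before extinction, and 18.8% and 17.5% after it. The share of all genes passing in both tables was not counted. Epha7 was the receptor with the largest difference in favour of BLA, at 22.7 to 28.3 FPKM in BLA and 5.94 to 8.42 FPKM in CeA (1.96 ± 0.10 and 2.01 ± 0.13, edgeR adjusted p = 3.39e-06 and 0.00137). Epha8 showed the reverse, at 0.877 to 1.58 FPKM in BLA and 3.91 to 5.73 FPKM in CeA (−1.79 ± 0.17 and −2.10 ± 0.12, edgeR adjusted p = 5.98e-05 and 0.00112). Epha4, which binds ephrins of both classes, was lower in BLA by the smaller amount of −0.46 ± 0.08 and −0.65 ± 0.08. Epha10, whose kinase domain is regarded as inactive, was higher by 1.10 ± 0.08 and 0.77 ± 0.07. Epha3 passed before extinction (0.65 ± 0.21) but not without any 1 naive library or B6 FC CeA (edgeR adjusted p of at most 0.0993). Among EphB receptors, Ephb3 was higher in BLA (1.27 ± 0.07 and 1.02 ± 0.09), as was Ephb6, another receptor without kinase activity (0.59 ± 0.06 and 0.32 ± 0.08), and Ephb1 was lower, at 3.52 to 5.11 FPKM in BLA and 11.2 to 12.3 FPKM in CeA (−1.43 ± 0.11 and −1.48 ± 0.08). Epha2, Ephb2 and Ephb4 did not pass (−0.07 ± 0.24, 0.26 ± 0.11 and −0.13 ± 0.12 before extinction).

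The tables list 3 Epha7 transcripts, and the short one carried the most counts in every library. It held 60.9% to 62.8% of Epha7 counts in S1 BLA and 53.4% to 60.1% in B6 BLA, and 62.9% to 65.8% in S1 CeA and 55.2% to 58.3% in B6 CeA, where the depth was 1201 to 6527 Epha7 counts per library (the 95% Wilson interval of the lowest share was 52.0% to 54.7%). S1 was above B6 in all 6 matched pairs, a description with no test. In GENCODE (GRCm38, chromosome 4, plus strand), the short transcript has a coding sequence of 1833 bases and 610 codons, and the longest 2997 bases and 998 codons. They share their first 1798 coding bases and then part. The coding strand around that point is printed because it is what sets the abundant form apart, with shared bases in lower case and bases of one form alone in capitals. The short form is whole to its stop codon (chr4:28943334-28946253, spliced), and the long form is given for its next 45 bases (chr4:28943334-28947572, spliced).
Epha7 short: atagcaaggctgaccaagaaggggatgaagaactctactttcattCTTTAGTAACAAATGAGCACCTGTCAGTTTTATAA
Epha7 long: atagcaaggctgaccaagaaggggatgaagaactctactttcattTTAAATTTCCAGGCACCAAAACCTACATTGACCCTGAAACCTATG
The short form thus ends 35 coding bases after the split and lacks the 1199 that follow in the long form. Truncated EphA7 receptors without the kinase domain are known in mouse brain, as background.

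Among other genes the split of counts between transcripts was more stable for some and less for most. Of 27 guidance genes with 2 or more transcripts, 23 had a leading transcript with under 90% of the counts in at least 1 library. The widest ranges were those of Ephb4 and Ntn5 (0% to 100%), Unc5d (0% to 99.1%), Unc5a (12.7% to 94.1%) and Sema3f (24.7% to 100%). For Ephb4 the shares overlapped between regions and between strains: the transcript without a 27-base insert held 13.8%, 42.4% and 100% of the counts in naive, conditioned and extinction S1 BLA, against 100%, 99.6% and 51.6% in B6 BLA, and 16.0%, 100% and 77.6% in S1 CeA, with 0%, 69.4% and 100% in B6 CeA. The gene counts behind those shares were 145 to 351. Both Ephb4 transcripts, and both Sema3f transcripts, differ in coding sequence by 1 segment, printed here in capitals with 20 flanking bases in lower case (GENCODE, GRCm38). The Ephb4 segment has 27 bases (chr5:137361447-137362409, plus strand, spliced) and the Sema3f segment 93 bases (chr9:107689760-107692187, minus strand, spliced).
Ephb4 insert: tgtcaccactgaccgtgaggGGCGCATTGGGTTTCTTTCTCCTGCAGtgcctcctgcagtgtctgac
Sema3f insert: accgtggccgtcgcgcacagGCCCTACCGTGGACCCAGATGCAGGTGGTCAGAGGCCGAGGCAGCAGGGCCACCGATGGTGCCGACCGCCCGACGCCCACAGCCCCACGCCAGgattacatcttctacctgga
Gene-level count sums do not depend on how reads were divided between such forms, and all edgeR and DESeq2 tests here used those sums. Gene FPKM values equal the sums of transcript FPKM, each scaled to its own length. They, and the limma fits made on them, do depend on that division.

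**Figure D3:**
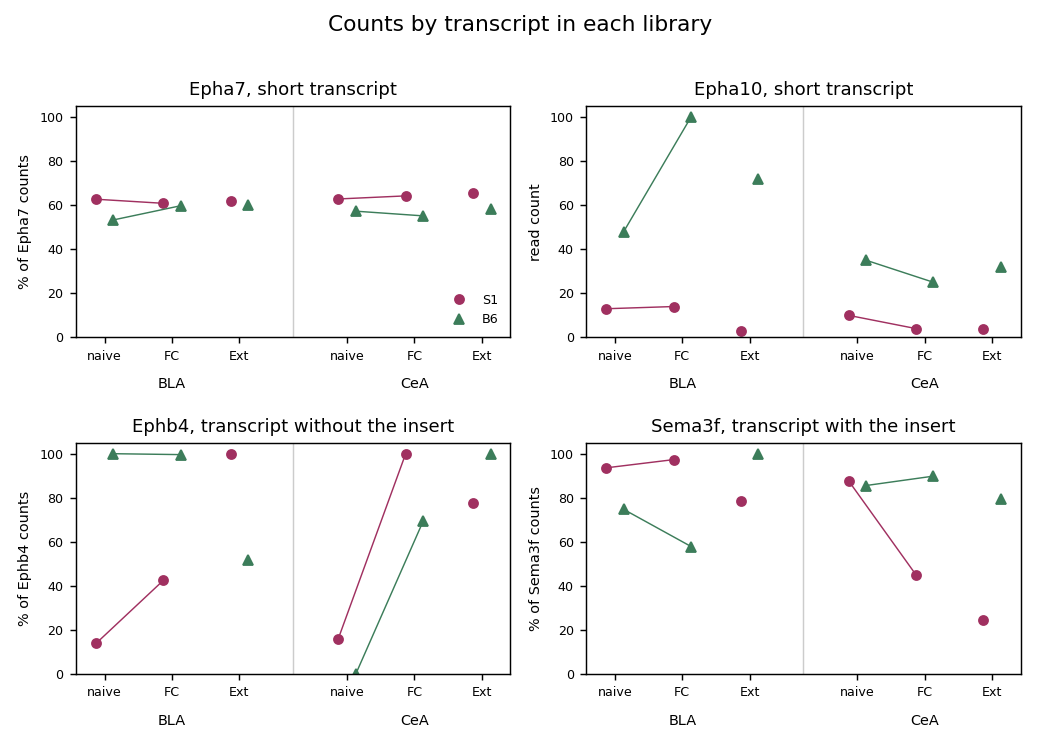
Share of gene counts (%) held by 1 transcript of Epha7, Ephb4 and Sema3f, and read counts of the short Epha10 transcript, in each of the 12 libraries, with BLA left of CeA, S1 as circles and B6 as triangles. The Epha7 share stays between 53.4% and 65.8%, the Ephb4 and Sema3f shares range widely, and the Epha10 counts are higher in B6 than in S1 in all 6 pairs.

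The second comparison set S1 against B6, the strains that differ in fear extinction. In naive and conditioned mice 19 of the 68 genes were higher and 2 lower in S1 (27.9% and 2.94%), against 12.4% and 10.4% of all genes tested (22.8% in either direction). The median log2 fold change of S1 over B6 was 0.09 for the guidance genes and −0.001 for all genes. Leaving out B6 naive CeA gave 12 higher genes, B6 FC BLA 9 and B6 FC CeA 10, in fits where 4.79%, 4.92% and 3.88% of all genes were higher. The lower genes numbered 0 without S1 naive BLA, S1 naive CeA, B6 naive CeA or S1 FC BLA and 1 without S1 FC CeA or B6 FC CeA, where 5.32% to 7.19% of all genes were lower. Without both CeA libraries high in Slc17a7, 11 were higher and 1 lower, with 4.53% and 5.45% of all genes. Guidance transcripts were longer than most (median 4812 bases, against 2810 for all genes tested), and after correction for the trend with length 13 were higher and 3 lower in S1, with 9.6% and 6.81% of all genes. The median log2 fold change was then 0.069 for the guidance genes and 0.045 for all genes. In 1 model of all 12 libraries 17 were higher and 3 lower, with 10.2% and 11.9% of all genes. The oligodendrocyte, astrocyte, microglial and precursor markers named above moved with strain in the other direction, and their part in these differences was not tested.

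Among ligands, Sema3b, a secreted semaphorin, separated the strains fully. S1 BLA had 0.745, 0.988 and 1.12 FPKM in naive, conditioned and extinction mice, and B6 BLA 0.395, 0.308 and 0.328 FPKM. S1 CeA had 0.728, 0.840 and 1.25 FPKM, and B6 CeA 0.326, 0.352 and 0.301 FPKM. All 6 S1 values lay above all 6 B6 values, at 62 to 287 counts per library, and the log2 fold change was 1.29 ± 0.16 before extinction (edgeR adjusted p = 0.00183) and 1.90 ± 0.21 after it (edgeR adjusted p = 0.0369). Sema3b was the only guidance gene to pass after extinction, where 0.638% of all genes were higher in S1 and 1.0% lower (1.64% in either direction). It passed without any 1 library before extinction, and with no filter on low counts it no longer passed after it.

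Sema5a, a transmembrane semaphorin with thrombospondin repeats, was higher in S1 before extinction: S1 BLA had 8.63 and 10.4 FPKM in naive and conditioned mice against 6.02 and 5.56 FPKM in B6 BLA, and S1 CeA 6.64 and 7.73 FPKM against 4.28 and 5.41 FPKM in B6 CeA (0.68 ± 0.08, edgeR adjusted p = 0.00138). After extinction it had 5.56 and 4.50 FPKM in S1 BLA and CeA against 4.43 and 5.26 FPKM in B6, a log2 fold change of 0.05 ± 0.14. Efna5 was higher in S1 by 0.48 ± 0.09 (edgeR adjusted p = 0.0112), with every S1 value above the B6 value of its pair. Ntn3 passed as well (0.43 ± 0.08, edgeR adjusted p = 0.0113), and its 6 S1 values, 3.62 to 4.21 FPKM, all exceeded its 6 B6 values, 2.60 to 3.49 FPKM. Sema3b and Ntn3 were the 2 of 69 genes with all S1 libraries above all B6 libraries (2.9%, against 1.94% of all genes tested), and 0 had B6 above S1 (3.83% of all genes).

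Slit1 was higher in S1 by 0.70 ± 0.17 (edgeR adjusted p = 0.0253), with 30.3 and 34.9 FPKM in naive and conditioned S1 BLA against 26.5 and 22.9 FPKM in B6 BLA, and 8.73 and 14.5 FPKM in S1 CeA against 6.16 and 5.79 FPKM in B6 CeA. The highest of these CeA values belonged to S1 FC CeA, a library that also stood apart in Slc17a7. Slit1 did not pass without B6 FC BLA, B6 naive CeA or B6 FC CeA (edgeR adjusted p = 0.0889, 0.081 and 0.103). Slit3 (0.50 ± 0.14), Ntn4 (0.60 ± 0.17), Sema3d (0.44 ± 0.09) and Sema6d (0.28 ± 0.07) were the other ligand genes higher in S1. Slit3 lost its call without any 1 library other than those of naive BLA (edgeR adjusted p of at most 0.146) and Ntn4 without any 1 other than those of naive CeA (at most 0.142). Sema3d lost it without either conditioned B6 library (at most 0.0527), and Sema6d without S1 naive BLA, S1 naive CeA, B6 naive CeA, B6 FC BLA or S1 FC CeA (at most 0.0971). Sema7a was the only ligand gene lower in S1 (−0.29 ± 0.07, edgeR adjusted p = 0.023), with 20.2 and 20.8 FPKM in S1 BLA against 26.9 and 25.5 FPKM in B6 BLA, and lost its call without any 1 naive library other than B6 naive BLA, and without S1 FC BLA or B6 FC BLA (edgeR adjusted p of at most 0.0775).

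Of the 33 receptors tested, 10 were higher and 1 lower in S1 (30.3% and 3.03%, against 12.4% and 10.4% of all genes). Epha6 was higher by 0.82 ± 0.13 (edgeR adjusted p = 0.00464): S1 BLA had 5.98 and 6.47 FPKM in naive and conditioned mice against 4.24 and 4.35 FPKM in B6 BLA, and S1 CeA 4.14 and 5.40 FPKM against 2.34 and 2.26 FPKM in B6 CeA. After extinction the strains stood close together, with 2.65 and 2.20 FPKM in S1 BLA and CeA against 3.16 and 2.11 FPKM in B6 (−0.10 ± 0.13). Epha3 was higher by 0.94 ± 0.21 before extinction (edgeR adjusted p = 0.0179), but not without S1 naive BLA, B6 naive CeA, B6 FC BLA or B6 FC CeA (edgeR adjusted p of 0.0542 to 0.0688). The receptors Unc5c (0.58 ± 0.07, edgeR adjusted p = 0.00176), Plxna4 (0.59 ± 0.10, edgeR adjusted p = 0.00653) and Robo2 (0.36 ± 0.05, edgeR adjusted p = 0.00402) passed without any 1 library.

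Unc5d was higher in S1 by 0.50 ± 0.09, with 13.5 and 14.9 FPKM in S1 CeA against 8.97 and 9.47 FPKM in B6 CeA and 3.52 and 4.07 FPKM in S1 BLA against 3.23 and 2.89 FPKM in B6 BLA, and failed only without B6 FC CeA (edgeR adjusted p = 0.055). Plxna2 (0.47 ± 0.09) failed without B6 naive CeA, B6 FC BLA or B6 FC CeA (edgeR adjusted p of at most 0.066). Robo1, Plxnc1 and Epha5 were higher by 0.45 ± 0.11, 0.35 ± 0.10 and 0.27 ± 0.06, and Ephb3 was lower by −0.23 ± 0.06. Robo1 lost its call without S1 naive CeA, B6 naive CeA, B6 FC BLA, S1 FC CeA or B6 FC CeA (edgeR adjusted p of at most 0.0991), and Epha5 without S1 naive BLA or any 1 conditioned library (at most 0.0911). Plxnc1 lost it without any 1 library other than those of naive BLA (at most 0.149), and Ephb3 without any 1 library other than B6 naive BLA (at most 0.13). In all, 8 of the 21 genes passed in every such fit: Sema3b, Sema5a, Efna5, Ntn3, Epha6, Unc5c, Plxna4 and Robo2. The same count was not made for all called genes, so it does not tell if guidance genes were more or less stable than others.

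In separate fits of each region's 4 naive and conditioned libraries, chosen after seeing the data, 10 guidance genes were higher and 1 lower in S1 in BLA (3.48% and 4.8% of all genes), and 21 were higher and 4 lower in CeA (14.0% and 12.1%). The 21 genes that passed for strain with both regions fitted together are a different set from the 21 higher in CeA alone. Each of them had the same sign in both regions. They were picked on these same libraries, so that agreement is largely set by the selection and no conclusion is drawn from it. Slit1 was higher by 0.41 in BLA and 0.97 in CeA, Slit3 by 0.20 and 0.79, and Epha6 by 0.54 and 1.09, while Sema3b differed little between regions (1.29 and 1.27). These are values of single fits, and the differences between regions were tested by the interaction described later.

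**Figure D4:**
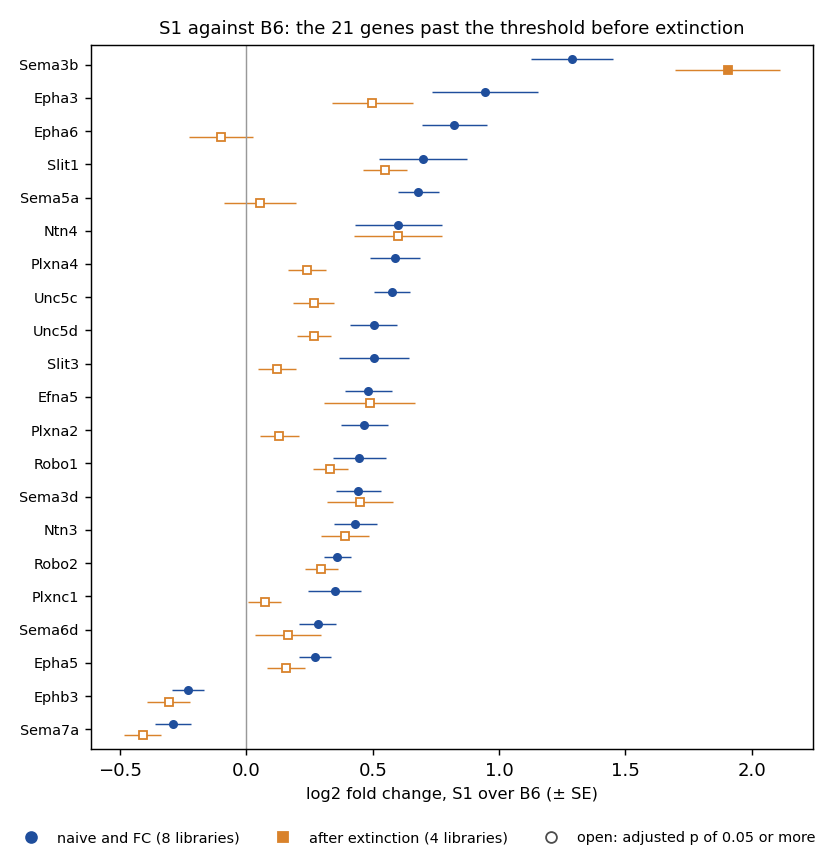
Log2 fold change of S1 over B6 (x axis, ± SE) for the 21 genes that passed before extinction (y axis), in the 8 naive and conditioned libraries (circles) and the 4 extinction libraries (squares); filled symbols passed an adjusted p of 0.05. Sema3b passed in both tables, 20 of the 21 kept their sign, and Epha6 lies at −0.10 after extinction. How many of all called genes kept their sign was not counted.

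The third comparison set conditioned against naive mice. None of the 68 genes passed by edgeR, where 0.0% of all genes did. By DESeq2 0 passed too, with 0.0983% of all genes higher and 0.0307% lower. By edgeR, 1 gene had an unadjusted p under 0.05 (3.51% of all genes). That gene was Robo2, at −0.13 ± 0.05 (FC over naive, unadjusted p = 0.0406, edgeR adjusted p = 0.999). The other genes with the smallest p were Sema5a (0.18 ± 0.08), Plxna1 (0.18 ± 0.12) and Sema3a (−0.17 ± 0.08), none of which passed. The 95% intervals of these differences ran from −0.26 to −0.01 for Robo2 and from −0.01 to 0.36 for Sema5a, and over all 68 genes the fitted differences lay between −0.46 and 0.20. Plxna1 was at −0.01 without both CeA libraries high in Slc17a7.

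The design also implies interactions. No guidance gene passed by edgeR for any of them. For a difference between strains in the conditioning effect, 0.0% of all genes passed by edgeR. There 2 guidance genes and 1.8% of all genes had an unadjusted p under 0.05. By DESeq2 0 guidance genes passed, with 0.0369% of all genes higher and 0.0184% lower. For a difference between regions in the strain effect, 0.0307% of all genes passed by edgeR (0.00614% higher and 0.0246% lower). There 6 guidance genes and 8.63% of all had an unadjusted p under 0.05, and by DESeq2 1 guidance gene was higher, with 0.27% of all. For a difference between regions in the conditioning effect, 0.0184% of all genes passed by edgeR (0.00614% higher and 0.0123% lower). There 13 guidance genes and 5.95% of all had an unadjusted p under 0.05. By DESeq2 0 guidance genes passed, with 0.043% of all genes higher and 0.0614% lower. The gene that passed by DESeq2 for strain by region was Sema3e. Its strain gap, S1 minus B6, was more positive in BLA than in CeA by 0.81 ± 0.16 (95% interval 0.44 to 1.19, edgeR adjusted p = 0.374). The values behind it were 6.25 and 5.0 FPKM in naive and conditioned S1 BLA against 5.76 and 5.89 FPKM in B6 BLA, and 2.24 and 1.94 FPKM in S1 CeA against 4.45 and 3.46 FPKM in B6 CeA. After extinction S1 CeA again had less, 2.26 FPKM against 3.36 FPKM in B6 CeA. The strain gap of Epha6 was smaller in BLA than in CeA by −0.55 ± 0.17 and that of Dcc by −0.59 ± 0.19, and neither passed.

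For conditioning by region, the smallest p-values were those of Plxnb3 (−0.54 ± 0.13) and Sema6a (−0.52 ± 0.12), both more negative in BLA than in CeA, with Sema3a (0.28 ± 0.12) and Nrp1 (0.31 ± 0.19) on the other side, all with an edgeR adjusted p of at least 0.745. The median of this interaction over the 68 genes was −0.17, against −0.01 for all genes. Corrected for the trend with transcript length, the medians were −0.10 and −0.01. For strain by conditioning, Efna1 had 1.09 ± 0.43 and Ntn4 0.66 ± 0.27, and Sema3f −0.25 ± 0.28 and Sema6d −0.12 ± 0.15 (edgeR adjusted p = 1 each), with a median of 0.19 over the 68 genes and 0.001 over all. With the same length correction the medians were 0.084 and −0.030.

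Whether strain and region gaps changed after extinction was tested across all 12 libraries, each gap being taken within its own table. For the strain gap, 0 guidance genes passed by edgeR (0.0% of all genes) and 0 by DESeq2 (0.0908% of all genes higher and 0.115% lower). By edgeR, 6 guidance genes had an unadjusted p under 0.05 (6.12% of all genes). The strain gap of Epha6 changed after extinction by −0.91 ± 0.22 (95% interval −1.42 to −0.41, edgeR adjusted p = 0.782), that of Sema5a by −0.62 ± 0.17, that of Sema3b by 0.63 ± 0.26 and that of Robo3 by 1.02 ± 0.40. For the region gap, 0 passed by edgeR (0.0121% of all genes) and 1 by DESeq2 (lower, with 0.333% of all genes), with 11 at an unadjusted p under 0.05 (10.3% of all genes). The gene that passed by DESeq2 was Slit3, whose BLA-over-CeA gap changed after extinction by −0.90 ± 0.23 (95% interval −1.43 to −0.38, edgeR adjusted p = 0.474). The gaps of Sema3c (−0.34 ± 0.10), Slit2 (0.46 ± 0.28) and Ephb4 (0.20 ± 0.19) did not pass by either tool. The median change of the region gap was −0.22 for the 68 genes and 0.003 for all genes. After correction for the trend with transcript length these medians were −0.097 and −0.018.

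Other genes of the pathway, 48 receptors, adhesion molecules and cytoplasmic effectors outside these families, were counted as well. Before extinction 27 of the 48 were higher and 6 lower in BLA (median log2 fold change 0.29), against 23.2% and 23.4% of all genes, and after it 20 were higher and 8 lower, against 18.8% and 17.5%. The largest differences were those of Ntng2, a membrane-anchored netrin relative (3.6 ± 0.17), and Boc, a co-receptor of Sonic hedgehog (2.36 ± 0.13), on the BLA side, and of Ablim3, an actin-binding protein (−0.79 ± 0.12), and Cdon, a relative of Boc (−0.77 ± 0.07), on the CeA side. Between strains 14 were higher and 0 lower in S1 by edgeR before extinction (median 0.14; 1 lower at an unadjusted p under 0.05), against 12.4% and 10.4% of all genes, led by Ablim1 (2.90 ± 0.16) and Neo1, a netrin and repulsive guidance molecule receptor (0.86 ± 0.07). After extinction Ablim1 alone passed (3.06 ± 0.23).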

How the data were processed

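Read counts per transcript and per gene, and FPKM values (fragments scaled to transcript length and library size), were deposited by the authors, with the 4 extinction libraries in tables of their own, apart from the 8 earlier ones. Per the labels' protocols, an RNeasy kit and a stranded TruSeq mRNA kit were used. The submitters' processing notes name StringTie, and the deposited tables' names give mm10 as the build. For the aligner, versions, filters and strand setting the sources used here give nothing. Transcript length was also deposited by the authors. In the gene table, 1 count column named no single library and was not used.

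Deposited transcript counts were added up per Gene_ID to give gene counts (36779 transcripts, 24531 genes). For the 69 members they equalled the deposited gene counts in the 11 libraries that could be checked. No pair of libraries was identical. Counts were tested with edgeR 4.0.16 (R 4.3.3): TMM scaling, filterByExpr, quasi-likelihood F test, Benjamini-Hochberg adjustment over all genes tested, threshold 0.05. Additive models of strain, region and condition over the 8 earlier libraries left 4 residual degrees of freedom, each interaction 3, the extinction libraries fitted alone 1, and the test of changed gaps over all 12 libraries 5. Each SE is the log2 fold change divided by the root of F. As every group is 1 library, p-values measure the spread around these models between libraries, not between mice. The quasi-likelihood fit also draws the spread of each gene toward that of all genes. With 1 residual degree of freedom, the SE and p-values after extinction therefore rest in large part on other genes, not on replication of that gene. FPKM values describe levels. Transcript shares carry Wilson intervals (95%), which cover counting error alone. The fitting code was tested on simulated data.

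The symbol rule for the members, and the gene lists, were chosen with earlier results of these data known. Genes named are, per comparison, up to 10 in each direction among called genes, if their mean CPM reached 1 and all matched pairs of libraries shared a sign. With no call, the 2 genes of smallest p in each direction were taken. Also named are the highest and lowest member of each family by mean FPKM, and the 5 widest ranges of transcript share. Others are named to account for the families, and the Epha7 and Epha10 transcripts were singled out after their values were seen. Alternatives were DESeq2 1.42.0, RLE scaling, no filter on low counts, a correction for a trend with transcript length, limma 3.58.1 on log2(FPKM + 1) and log2(FPKM + 0.1), all 12 libraries in 1 model, matched pairs as blocks, and each library left out in turn. Coding sequences come from GENCODE vM21 (GRCm38).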

Additional observations from a re-analysis of the deposited data

How the results depend on the processing

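No paired analysis was possible because the groups share a single replicate number and the labels tie no libraries to the same mice. In fits chosen after seeing the data, the 4 pairs of libraries alike in the other factors were taken as blocks. There 31 members were higher and 12 lower in BLA (21.8% and 21.7% of all genes), and 21 higher and 3 lower in S1 (12.2% and 10.1%). With conditioning 0 changed (0.0% of all genes), and 2 had an unadjusted p under 0.05 (4.25% of all genes). The region effect before extinction kept its counts within 1.5 times under each alternative run, from 28 to 34 members higher and 12 to 14 lower when 1 library was left out. In the fits with 1 library left out, 19.5% to 23.8% of all genes were higher and 18.7% to 23.5% lower. The strain effect before extinction was less stable, with 9 to 26 members higher and 0 to 3 lower when 1 library was left out, while 3.88% to 17.4% of all genes were higher and 5.32% to 14.9% lower. Further fits were chosen after seeing the data. Without both CeA libraries high in Slc17a7, 11 members were higher and 1 lower in S1 (4.53% and 5.45% of all genes). BLA libraries alone gave 10 higher and 1 lower (3.48% and 4.8%), and CeA libraries alone 21 higher and 4 lower (14.0% and 12.1%). After extinction, DESeq2 gave 2 members higher and 1 lower in S1 (Sema3b, Slit1 and Sema7a, with 1.54% and 2.21% of all genes). With no filter on low counts, edgeR gave 0 higher, with 0.362% of all genes (more genes were tested by construction). In that fit 18 members, and 12.8% of all genes, had an unadjusted p under 0.05. The region effect after extinction fell to 14 members higher with limma on log2(FPKM + 0.1), where 15.0% of all genes were higher, against 18.8% by edgeR. DESeq2 gave 1 member higher for strain by region (0.27% of all genes) and 1 lower for the change of the region gap (0.333%), where edgeR gave 0 members in each. The conditioning effect, the interactions and both changes of gap stayed at 0 members by edgeR in every fit with 1 library left out. Signs turned for Plxna1 in the conditioning effect (−0.0096 without both CeA libraries high in Slc17a7) and, without B6 FC CeA, for strain by conditioning of Sema3f (0.21, range −0.55 to 0.21) and Sema6d (0.0145, range −0.24 to 0.0145). Except where the construction is stated, the cause was not tested. With 1 of the 4 extinction libraries left out no residual degrees of freedom remained, so only the values of the remaining pair were computed, with no test. Depth limits Epha1, Ntn5 in CeA, Efna4 and Robo3, which had few counts.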

Other observations

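The receptor gene Epha10 has a short transcript of 1236 bases in the tables that separated the strains, although the gene as a whole did not pass (S1 over B6, −0.13 ± 0.08 before extinction, edgeR adjusted p = 0.27). The short transcript had 13, 14 and 3 counts in naive, conditioned and extinction S1 BLA, against 48, 100 and 72 counts in B6 BLA. In CeA it had 10, 4 and 4 counts in S1, against 35, 25 and 32 counts in B6. S1 was below B6 in all 6 matched pairs, and the short form made up 0.098% to 0.937% of Epha10 counts in S1 and 1.35% to 2.75% in B6. This transcript was picked after its values were seen, so the pattern is a description with no test, and reads of the short form cannot be told apart from reads of the longer one where their exons are shared.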
